A study of Mus musculus with 4 samples.

Results

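Genes for S100 proteins and for proteins of the neutrophil's secondary granules were followed in mouse macrophages that had been grown from bone marrow in culture (BMDM). The set was named by symbol and holds 9 of the 55536 Ensembl genes measured: S100a4, S100a6, S100a8, S100a9, S100a10, S100a11, Ngp, Camp and Ltf. The genes were selected on their TPM in these libraries, including the uneven levels of S100a8 and S100a9, so levels and spread are given as a description, and no test is read for them. There was 1 group of 4 libraries, made from polyA-selected RNA of C57BL/6J macrophages. By the sample descriptions all cells received 100 ng/mL Lipid A, the TLR4-binding anchor of lipopolysaccharide, for 12 h, then a washout of 12 h, and then 100 ng/mL Lipid A once more for 60 min. Elsewhere the labels name lipoprotein A as the agent and mention no washout, so they conflict. All 4 libraries carry the same donor label, sex and age were not collected, and nothing shows whether cultures came from separate mice. Any spread between libraries may therefore be technical. Untreated cells were not analysed here, so no value below is a response to Lipid A.

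S100 proteins are small calcium-binding proteins that mostly work as dimers, inside cells by binding annexins, myosin and other partners, and outside them as alarm signals. S100a8 and S100a9 pair to form calprotectin, which sequesters zinc and manganese and is among the most abundant proteins of the neutrophil cytosol, and is also made by monocytes. The secondary granules of neutrophils are filled during maturation in the bone marrow with lactoferrin (Ltf), the cathelicidin precursor (Camp) and the neutrophilic granule protein (Ngp), and mature macrophages are not their usual source.

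The region just upstream of the gene is shown for those whose levels differed most between libraries. RefSeq promoter windows of GRCm38.p6, from 250 bases before to 50 bases after the annotated start, were found for 8 of the 9 genes, and 7 are printed 5′ to 3′ on the strand of the gene, leaving out S100a11, the gene with the smallest spread. Capitals mark matches to TATAAA, the TATA box, or to TTNNGNAA, a loose form of the site of C/EBP factors, on either strand. The windows are chr3:90668821-90669120 on the plus strand for S100a8, chr3:90695672-90695971 on the minus strand for S100a9, chr9:110419558-110419857 on the plus strand for Ngp, chr9:111019042-111019341 on the plus strand for Ltf, chr9:109849407-109849706 on the minus strand for Camp, chr3:90603520-90603819 on the plus strand for S100a4 and chr3:90612644-90612943 on the plus strand for S100a6.
S100a8: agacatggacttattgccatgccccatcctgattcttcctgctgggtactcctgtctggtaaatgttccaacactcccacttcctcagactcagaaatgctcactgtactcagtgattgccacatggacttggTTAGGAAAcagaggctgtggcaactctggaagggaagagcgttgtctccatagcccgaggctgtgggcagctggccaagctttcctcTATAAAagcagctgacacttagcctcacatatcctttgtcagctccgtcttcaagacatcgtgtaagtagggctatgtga
S100a9: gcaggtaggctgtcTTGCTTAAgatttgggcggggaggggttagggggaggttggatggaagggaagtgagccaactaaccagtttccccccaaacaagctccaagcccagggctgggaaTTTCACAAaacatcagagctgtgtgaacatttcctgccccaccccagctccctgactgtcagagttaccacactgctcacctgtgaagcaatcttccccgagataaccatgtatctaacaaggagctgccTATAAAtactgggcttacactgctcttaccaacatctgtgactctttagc
Ngp: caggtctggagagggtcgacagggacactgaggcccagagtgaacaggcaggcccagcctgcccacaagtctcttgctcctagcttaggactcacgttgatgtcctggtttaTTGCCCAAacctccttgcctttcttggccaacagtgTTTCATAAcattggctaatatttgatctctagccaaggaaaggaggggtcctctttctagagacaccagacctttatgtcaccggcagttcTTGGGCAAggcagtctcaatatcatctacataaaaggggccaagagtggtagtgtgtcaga
Ltf: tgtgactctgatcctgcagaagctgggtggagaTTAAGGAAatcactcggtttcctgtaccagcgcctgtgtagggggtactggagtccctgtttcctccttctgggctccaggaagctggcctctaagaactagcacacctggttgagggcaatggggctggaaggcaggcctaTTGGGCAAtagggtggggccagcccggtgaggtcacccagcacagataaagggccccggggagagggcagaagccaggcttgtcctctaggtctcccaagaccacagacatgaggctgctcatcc
Camp: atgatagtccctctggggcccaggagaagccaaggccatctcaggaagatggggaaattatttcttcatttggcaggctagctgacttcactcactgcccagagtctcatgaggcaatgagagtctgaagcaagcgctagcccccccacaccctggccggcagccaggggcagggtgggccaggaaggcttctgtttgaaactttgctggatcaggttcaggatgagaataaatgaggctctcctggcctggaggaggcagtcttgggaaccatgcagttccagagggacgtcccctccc
S100a4: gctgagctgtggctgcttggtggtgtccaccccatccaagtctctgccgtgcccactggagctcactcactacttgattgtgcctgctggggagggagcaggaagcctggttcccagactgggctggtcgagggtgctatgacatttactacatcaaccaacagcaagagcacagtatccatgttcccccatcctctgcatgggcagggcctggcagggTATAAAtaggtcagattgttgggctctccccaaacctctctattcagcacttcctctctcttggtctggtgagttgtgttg
S100a6: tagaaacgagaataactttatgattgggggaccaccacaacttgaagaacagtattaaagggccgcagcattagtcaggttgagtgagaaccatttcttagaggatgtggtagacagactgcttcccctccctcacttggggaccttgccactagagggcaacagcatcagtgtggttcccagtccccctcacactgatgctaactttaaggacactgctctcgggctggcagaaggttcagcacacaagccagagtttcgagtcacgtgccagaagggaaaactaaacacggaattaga

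TTNNGNAA occurred in the windows of S100a8, S100a9, Ngp and Ltf, with 1, 2, 3 and 2 matches, and in none of those of S100a4, S100a6, S100a11 and Camp. Of all 32851 RefSeq windows of this length 40.7% hold at least 1 such match on either strand, so it is a common sequence. TATAAA on either strand is in 13.6% of the windows and was found in S100a8, S100a9 and S100a4. In S100a8 and S100a4 it began 30 and 31 bases before the annotated start, and 2.25% of all windows have it on the plus strand between 45 and 15 bases before the start. In S100a9 it began at the annotated start itself. The AP-1 site TGANTCA, in 7.81% of windows, occurred in S100a11 with 2 matches and in no other of the 8. The PU.1 core AGGAAG, in 35.4% of windows, had 2 matches in each of S100a4, S100a8 and Camp and 1 in Ltf. Matches of different motifs did not overlap. A match here is letters in a window and was not tested as a binding site.

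Levels are TPM, which are scaled by the authors for transcript length and sequencing depth, from their first quantification, which was made from alignments to the transcriptome. Expected counts on genes ranged from 23167140 to 41453162 per library. S100a11 and S100a10 were abundant in every library, and S100a6, S100a4, S100a9 and S100a8 were intermediate by their means. Ltf and Camp were at the edge of detection. Ngp was below 1 TPM in replicates 2 and 4 but had 7.96 and 7.34 TPM in replicates 1 and 3. Detection was set at a minimum of 1 TPM in each library, which held for 6 of the 9 genes, all of them S100 genes, against a background of 18.7% of all genes. S100a10 and S100a11 also had at least 100 TPM in each library, which holds for 1.96% of all genes. The median log2 level of the 9 genes was 5.18, against 4.11 over the 10407 detected genes and 0.76 over the 21111 genes with a count. The median difference between the highest and the lowest library, in log2(TPM + 0.1), was 2.31 for the 9 genes and 1.93 for the 6 detected ones, against 0.55 over all detected genes.

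**Figure D1:**
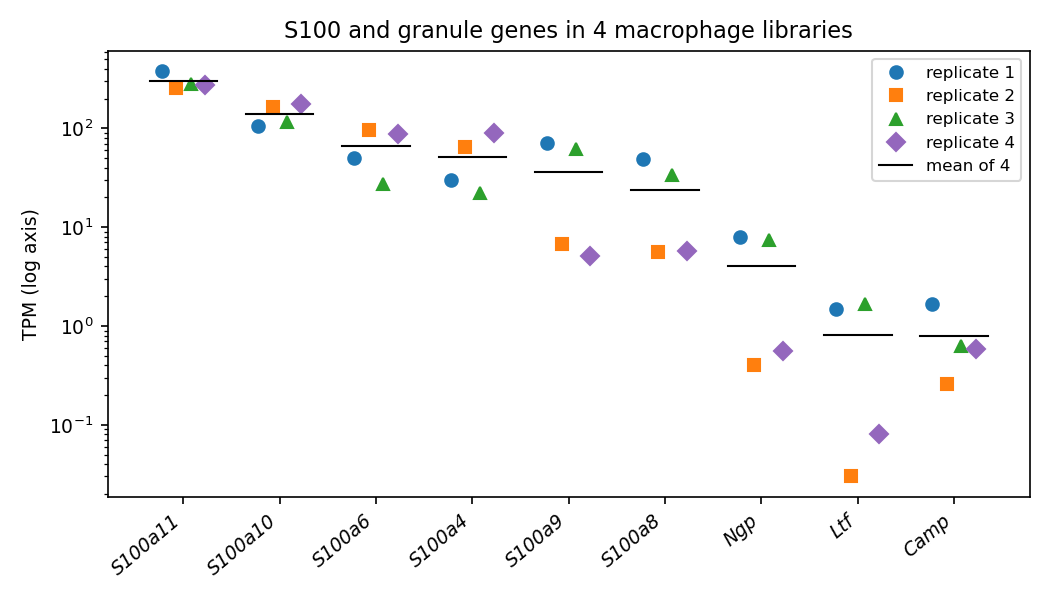
TPM of each of the 9 genes (horizontal axis, ordered by mean level) in the 4 replicate libraries on a log axis; each symbol is 1 library and the black bar is the mean of 4. S100a11 lies between 259 and 381 TPM in every library, while S100a8, S100a9, Ngp and Ltf each show 2 high libraries, replicates 1 and 3, and 2 low ones, replicates 2 and 4.

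S100a8 and S100a9, the subunits of calprotectin, were high in replicates 1 and 3 and low in replicates 2 and 4. S100a8 (ENSMUSG00000056054.9, chromosome 3, 90668978 to 90670035 in mm10, plus strand) had 49.3, 5.58, 34.0 and 5.69 TPM in replicates 1 to 4, from 204, 20, 216 and 30 counts. S100a9 (ENSMUSG00000056071.12, chromosome 3, 90692632 to 90695721, minus strand) had 71.4, 6.77, 61.7 and 5.10 TPM, from 329, 27, 438 and 30 counts. The 2 low values of each gene lie close together and far below its 2 high ones. The exact 95% Poisson intervals of S100a8, which cover counting error only, were 42.7 to 56.5 TPM in replicate 1 and 29.6 to 38.8 in replicate 3, against 3.41 to 8.62 in replicate 2 and 3.84 to 8.12 in replicate 4. The means were 23.6 ± 21.7 TPM for S100a8 and 36.2 ± 35.2 for S100a9 (SD, n = 4), so each SD was nearly as large as its mean and the coefficients of variation were 91.8% and 97.2%.

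Replicates 1 and 2 are recorded with 6 read files each and replicates 3 and 4 with 4 each, and each of these sets held 1 library high in calprotectin transcripts and 1 low. Within the first set S100a8 was 8.83 times and S100a9 10.5 times as high in replicate 1 as in replicate 2. Within the second set S100a8 was 5.97 times and S100a9 12.1 times as high in replicate 3 as in replicate 4. The sum of the pair was 121, 12.4, 95.6 and 10.8 TPM in replicates 1 to 4. In bulk RNA, fewer cells that make a transcript and less of it per cell cannot be told apart. The 10 neutrophil markers checked summed to 95.7, 116, 123 and 106 TPM in replicates 1 to 4. Csf3r, the receptor for G-CSF, made up most of that sum, and the other 9 summed to 12.7, 9.53, 12.2 and 7.58 TPM, higher in replicates 1 and 3. Mmp8 and Padi4 made up most of the sum of these 9. Ly6g and Retnlg, also among the 9, had no count in any library. Mpo, Elane and Cxcr2, also among them, had few counts, given below, most of them in replicates 1 and 3. The part of neutrophil markers in the levels of S100a8, S100a9 and Ngp was not tested.

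The balance between the subunits was steadier than their level. S100a9 stood above S100a8 in 3 of 4 libraries, with a TPM ratio of 1.45, 1.21, 1.82 and 0.896 in replicates 1 to 4. The mean log2 ratio was 0.38 ± 0.43 (SD, n = 4), which is smaller than its spread between libraries. By counts, S100a9 held 61.7% of the pair in replicate 1 (exact 95% binomial interval 57.5% to 65.9%) and 67.0% in replicate 3 (63.2% to 70.6%). In the libraries with few counts the interval was wide and included an even split, from 42.2% to 71.7% in replicate 2 and from 36.8% to 63.2% in replicate 4.

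The granule genes Ngp and Ltf followed the same libraries at far lower levels. Ngp, the most abundant of the 3 (ENSMUSG00000032484.8, chromosome 9, 110419747 to 110423012, plus strand), had 7.96, 0.40, 7.34 and 0.56 TPM in replicates 1 to 4, from 137, 6, 205 and 13 counts. Its level was 19.9 times as high in replicate 1 as in replicate 2 and 13.1 times as high in replicate 3 as in replicate 4, and the intervals in the low libraries were 0.147 to 0.871 TPM in replicate 2 and 0.298 to 0.958 in replicate 4. Ltf, lactoferrin, an iron-binding protein (ENSMUSG00000032496.7, chromosome 9, 111019271 to 111042767, plus strand), had 1.48, 0.03, 1.67 and 0.08 TPM, from 40, 1, 98 and 5 counts. Its intervals in replicates 1 and 3, 1.06 to 2.02 and 1.36 to 2.04 TPM, do not meet those in replicates 2 and 4, which end at 0.167 and 0.187 TPM.

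Camp, the precursor of the antimicrobial peptide CRAMP (ENSMUSG00000038357.10, chromosome 9, 109847379 to 109849617, minus strand), had 1.68, 0.26, 0.63 and 0.59 TPM from 15, 2, 9 and 7 counts. Replicate 1 was the highest library, with an interval of 0.940 to 2.77 TPM that meets those of replicates 3 and 4, and replicates 3 and 4 could not be told apart at this depth, with intervals of 0.288 to 1.20 and 0.237 to 1.22 TPM. The means were 4.07 ± 4.15 TPM for Ngp, 0.815 ± 0.881 for Ltf and 0.790 ± 0.616 for Camp (SD, n = 4), and the 3 together came to 11.1, 0.690, 9.64 and 1.23 TPM in replicates 1 to 4. All 3 genes lie on chromosome 9, Camp 570130 bases from Ngp and Ngp 596259 bases from Ltf. The ratio of Ngp to S100a8 in TPM was 0.162, 0.0717, 0.216 and 0.0984, lower in replicates 2 and 4, where Ngp rests on 6 and 13 counts. By counts, Ngp's share of the pair had an exact 95% binomial interval of 34.9% to 45.6% in replicate 1 and 43.8% to 53.6% in replicate 3. The interval was 8.97% to 43.6% in replicate 2, which meets that of replicate 1 but not of replicate 3. In replicate 4 it was 17.2% to 46.1%, which meets both.

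**Figure D2:**
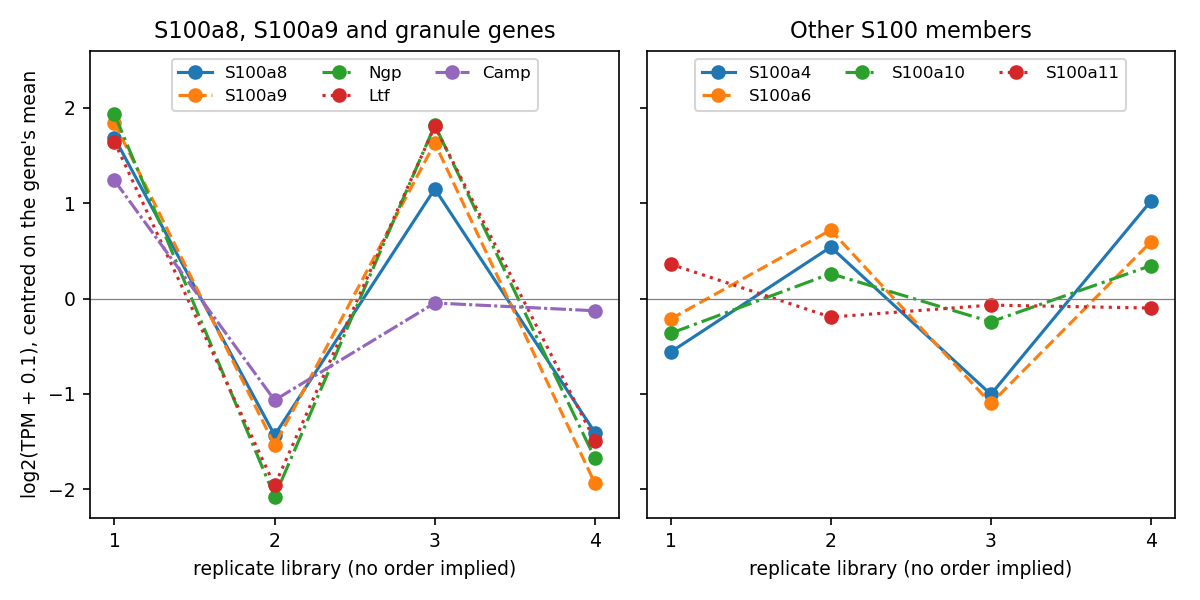
Each gene's log2(TPM + 0.1) in the 4 libraries after subtracting its own mean; points are libraries and lines only join the points of 1 gene, as replicates have no order. On the left S100a8, S100a9, Ngp and Ltf are above their means in replicates 1 and 3 and below them in replicates 2 and 4; on the right S100a4, S100a6 and S100a10 lie the other way round, and S100a11 stays nearest to its mean.

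S100a4, S100a6 and S100a10, which act mainly inside cells, were higher in replicates 2 and 4 than in replicates 1 and 3. S100a4, a regulator of non-muscle myosin and cell motility (ENSMUSG00000001020.8, chromosome 3, 90603771 to 90606045, plus strand), had 29.9, 64.3, 22.0 and 90.0 TPM in replicates 1 to 4, from 130, 242, 147 and 496 counts. S100a6, or calcyclin (ENSMUSG00000001025.8, chromosome 3, 90612882 to 90624181, plus strand), had 50.5, 96.5, 27.3 and 88.6 TPM, from 354, 662, 327 and 916 counts. For both genes the lower value of replicates 2 and 4 lay above the higher one of replicates 1 and 3. S100a4 was 2.15 times as high in replicate 2 as in replicate 1 and 4.10 times as high in replicate 4 as in replicate 3, and S100a6 was 1.91 and 3.25 times as high. The TPM ratio of S100a4 to S100a6 was 0.593, 0.667, 0.806 and 1.02 in the 4 libraries, and their means were 51.6 ± 31.6 and 65.7 ± 32.6 TPM (SD, n = 4).

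S100a10, or p11, which binds annexin A2 in a heterotetramer at the membrane (ENSMUSG00000041959.14, chromosome 3, 93555080 to 93564643, plus strand), had 107, 165, 116 and 175 TPM in replicates 1 to 4, a mean of 140 ± 34.2 (SD, n = 4). It was 1.54 times as high in replicate 2 as in replicate 1 and 1.51 times as high in replicate 4 as in replicate 3. S100a11, or calgizzarin, a partner of annexin A1 (ENSMUSG00000027907.4, chromosome 3, 93520488 to 93526287, plus strand), was the most abundant of the 9 at 381, 259, 283 and 277 TPM, a mean of 299.8 ± 54.9 (SD, n = 4). Replicate 1 was its highest library, at 1.47 times replicate 2, while replicate 3 was 1.02 times replicate 4. S100a11 had the lowest coefficient of variation of the 9 genes, 18.3%, followed by S100a10 with 24.3%. The counts of S100a11 were fractional, and its processed pseudogene S100a11-ps on chromosome 12 was given no count in any library.

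Setting the genes side by side, the 4 S100 genes other than calprotectin summed to 568, 585, 448 and 630.0 TPM in replicates 1 to 4. S100a11 stood above S100a10, and S100a10 above S100a6, with ranges over the 4 libraries that did not overlap. Below these the order of the means was S100a6, S100a4, S100a9, S100a8, Ngp, Ltf and Camp, and the ranges of all neighbours overlapped. S100a6 was above S100a4 in 3 libraries and S100a4 above S100a9 in 2, replicates 2 and 4. S100a8 was above Ngp in all 4. Among all 55536 genes the mean of S100a11 ranked at 500, S100a10 at 982, S100a6 at 1951, S100a4 at 2398, S100a9 at 3181 and S100a8 at 4305, and Ngp, Ltf and Camp at 8929, 11534 and 11575.

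How common these profiles are was counted over the 11088 genes with a mean of at least 1 TPM and at least 10 counts in their highest library, 7 of the 9 genes among them. Replicates 1 and 3 were the 2 highest libraries for 9.79% of these genes, S100a8, S100a9, Ngp and S100a11 included. The lower of them was at least 2-fold above both other libraries for 0.207%, which is 23 genes, S100a8, S100a9 and Ngp included. Replicates 2 and 4 were the 2 highest for 22.8% of the genes, with S100a4, S100a6 and S100a10 among them, and at least 2-fold above the others for 0.568%, which is 63 genes with S100a4 among them. The 6 genes outside the set whose profile over the 4 libraries lay nearest to that of S100a8 and S100a9 were Cd300ld2, Ppbp, Cd36, Gm38158, Rapgef3os1 and 2010001K21Rik. Their distances, in log2 units summed over libraries as a Euclidean distance, were 1.03, 1.10, 1.25, 1.29, 1.30 and 1.44, against a median of 3.28 over all genes compared. Ngp lay nearer, at 0.75, and S100a11, S100a10, S100a6 and S100a4 lay at 2.87, 3.79, 4.49 and 4.75.

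Cd36, a scavenger receptor of macrophages that takes up oxidised lipids, was the most abundant of these neighbours, with 164, 40.6, 154 and 42.3 TPM in replicates 1 to 4 from 7206, 1539, 10985 and 2542 counts. Ppbp, a chemokine of platelets and myeloid cells, had 1.70, 0.310, 3.02 and 0.350 TPM from 25, 4, 72 and 7 counts. The processed pseudogene Gm38158 and the antisense transcript Rapgef3os1 rest on 17 and 18.4 counts in their highest library. With 4 points many profiles are alike, so likeness here describes these libraries and no more.

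A test of spread between libraries against edgeR's dispersion trend called 305 of 11679 genes at an adjusted p of 0.05, a background of 2.61%. Of the 9 genes 6 passed its filter on low counts and 4 of them, S100a4, S100a6, S100a8 and S100a9, were among those called. Nothing is read from that count, because the uneven levels were known when the genes were chosen. Ngp, Camp and Ltf did not pass the filter with all 4 libraries. With replicate 2 left out, Ngp passed it and was called, and nothing is read from that either. Over all genes the test called 135 without replicate 1. Without replicate 3 only S100a8 and S100a9 of the 9 were called, S100a4 was also not called without replicate 2 or 4, and S100a6 not without replicate 2.

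The isoforms behind these levels were nearly single for most of the genes. By the authors' first quantification S100a8-201, S100a11-201, Ngp-201 and Camp-201 held 100% of their gene in every library, S100a10-201 at least 99.84% and S100a4-201 at least 98.78%. S100a9-201 held 84.2%, 81.7%, 88.6% and 93.7% in replicates 1 to 4, and the protein-coding S100a9-202 the rest. S100a6-201 held 69.0%, 88.3%, 81.4% and 87.0%, and the protein-coding S100a6-203 held 30.8%, 11.5%, 18.6% and 13.0%. The second quantification, which the authors made directly from the reads, gave S100a6-203 98.5, 109.8, 11.5 and 0 counts, against 58.5, 36.2, 29.2 and 55.0 counts in the first, so its share depends on how reads were assigned. Ltf-201 held 53.8% in replicate 1 and 79.3% in replicate 3, where the other transcripts, Ltf-207 and Ltf-211, rest on 4.70 and 1.18 counts.

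S100a4 shares 2115 bases with Gm42674 on the same strand, and Gm42674 was listed at 0 TPM in every library. The other 8 genes overlap no annotated gene. S100a8 and S100a9 face each other with their 3′ ends 22597 bases apart.

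Most other S100 genes were not detected. The annotation holds 18 S100 genes, 17 of them protein coding, of which 14 lie on chromosome 3, and 8 were detected, 6 of them from the set. The others were S100a1, known from heart muscle, with 51.3, 128, 112 and 199.7 TPM in replicates 1 to 4, and S100a13, which takes part in the release of proteins without a signal peptide, with 42.2 ± 6.05 TPM (SD, n = 4). S100a1 and S100a13 lie 43 bases apart on opposite strands, and whether reads were counted by strand is not given in the sources used here. S100a2, S100a5, S100a14, S100g and S100z had no count in any library, which allows up to 3 counts, or 0.0724 to 0.129 CPM (counts scaled to library size), and S100a5 lies between the detected S100a4 and S100a6. Of the 11 other S100 genes listed for comparison 10 were measured, 2 were detected and S100a1 was called by the spread test.

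**Figure D3:**
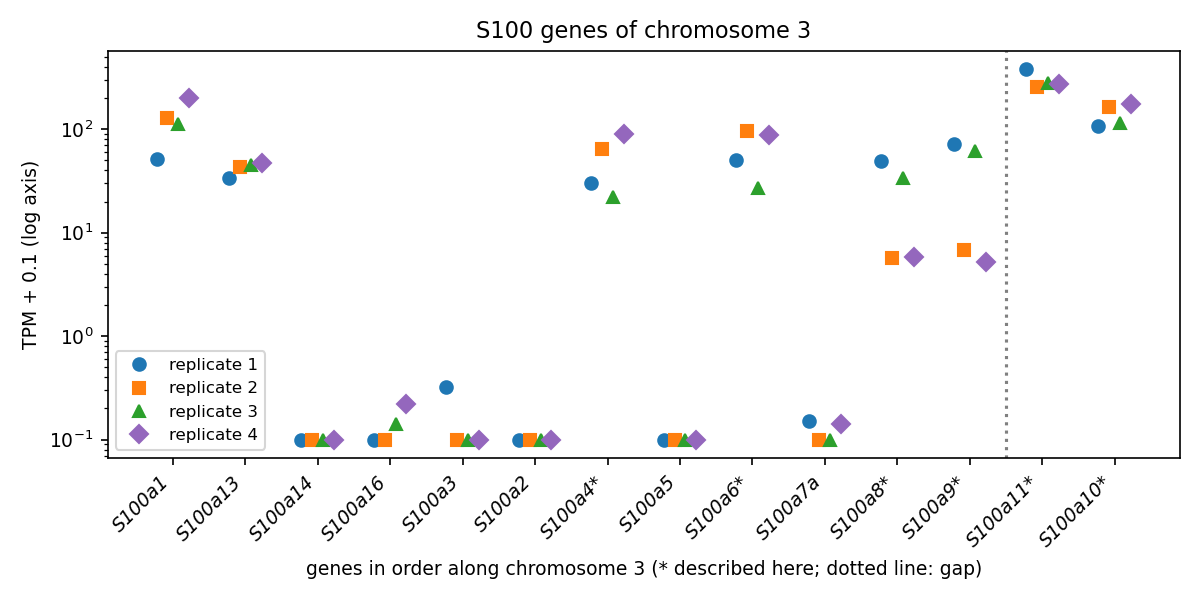
TPM + 0.1 on a log axis of the 14 protein-coding S100 genes of chromosome 3, in their order along the chromosome; each symbol is 1 library, an asterisk marks genes of the set, and the dotted line marks the gap of 2824767 bases between S100a9 and S100a11. Detected and undetected genes are interleaved along the cluster, with S100a5, at 0 in every library, between S100a4 and S100a6.

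Known partners and receptors of S100 proteins were mostly present. Of 12 listed genes 11 were detected, and the median log2 level of the list was 7.27, against 4.11 over all detected genes. Anxa2, the partner of S100a10, had 326 ± 27.0 TPM and Anxa1, the partner of S100a11, had 277 ± 77.4 TPM (SD, n = 4). Anxa5 and Anxa6, which bind S100a6 and other S100 proteins, had 297 ± 36.4 and 181 ± 11.8 TPM, Anxa11 had 37.9 ± 5.33 TPM, and Myh9, the heavy chain of non-muscle myosin that S100a4 binds, had 113 ± 18.7 TPM. The TPM ratio of S100a10 to Anxa2 was 0.339, 0.562, 0.333 and 0.503 in replicates 1 to 4, and that of S100a11 to Anxa1 was 0.985, 0.997, 1.09 and 1.36.

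Among receptors, Tlr4, through which extracellular S100a8 signals, had 34.0 ± 6.69 TPM (SD, n = 4), Bsg 230 ± 18.7 and Lrp1 201 ± 17.0. Ager, which encodes the receptor RAGE, was not detected, with 0, 3, 5 and 2 counts (named after its values were seen). The formyl peptide receptor Fpr2, which binds annexin A1, had 193, 163, 89.1 and 80.5 TPM. Of the 11 genes of the list that passed the filter, Cd36 and Fpr2 were called by the spread test, against 2.61% of all genes.

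Genes of other neutrophil granule proteins had no common highest library where they were detected. Ctsc, Itgam and Mmp8 had replicates 1 and 3 as their 2 highest libraries, as had 9.79% of the 11088 genes compared above. Ctsc had 1035, 780, 840 and 659 TPM and Itgam 254, 143, 156 and 115 TPM in replicates 1 to 4. Lcn2, Chil3, Hp, Slpi, Cybb and Lyz2 had other pairs of highest libraries. Among the undetected granule genes listed, Mpo, Elane, Prtn3, Ctsg, Mmp9, Pglyrp1, Cd177, Olfm4 and Fcnb had their 2 highest counts in replicates 1 and 3, as S100a8 and Ngp did. Cd177 had 5, 2, 8 and 4 counts in replicates 1 to 4, Olfm4 had 10, 1, 4 and 0, and Fcnb had 2, 1, 2 and 0. Cd177, Olfm4 and Fcnb are named after their values were seen. Ms4a3, Serpinb1a and Bpi, the other undetected genes of these lists, did not. These counts are few and are not scaled for depth. Of 8 primary granule genes only Ctsc was detected, a lysosomal protease that macrophages also make, with 829 ± 157 TPM (SD, n = 4), and the median log2 level of the list was -1.66. Mpo, myeloperoxidase, had 14, 1, 12 and 5 counts in replicates 1 to 4, Elane, neutrophil elastase, had 9, 0, 3 and 1, and Prtn3, proteinase 3, had 11, 2, 6 and 5. Ctsg had 3, 0, 2 and 0 counts and Ms4a3 had 4, 0, 1 and 1. Serpinb1a, a protease inhibitor, had 8, 8, 7 and 5 counts, and Bpi had 0, 0, 0 and 2, so these 2 did not share the high libraries of S100a8. These 7 genes had a mean below 1 TPM and are named after their values were seen. By TPM replicate 4 was the highest library of Mpo, at 0.62 TPM from 5 counts, against 0.48 TPM from 14 counts in replicate 1. Of 13 secondary and tertiary granule genes other than those of the set 8 were detected, with a median log2 level of 2.16, among them Lyz2, Cybb and Itgam, which macrophages express at high levels.

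Lcn2, a siderophore-binding protein that macrophages induce in response to TLR4 ligands, had 61.8, 127, 76.4 and 48.5 TPM, and replicate 2 was its highest library. Mmp8, neutrophil collagenase, had 6.85, 5.70, 8.76 and 3.66 TPM, and Chil3, a chitinase-like protein of myeloid cells, had 15.3, 10.2, 10.1 and 7.0 TPM. Hp, haptoglobin, had 3.76, 7.78, 2.72 and 3.23 TPM, and Slpi, a protease inhibitor, had 2.99, 6.59, 1.65 and 4.68 TPM. Of these 5 only Mmp8 had replicates 1 and 3 as its highest libraries, and its replicates 1 and 2 lay close together. Mmp9 was the gene of the list called by the spread test, from 59, 9, 39 and 13 counts, and Pglyrp1, a peptidoglycan-binding protein, had 4, 0, 7 and 0 counts; both are named after their values were seen.

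**Figure D4:**
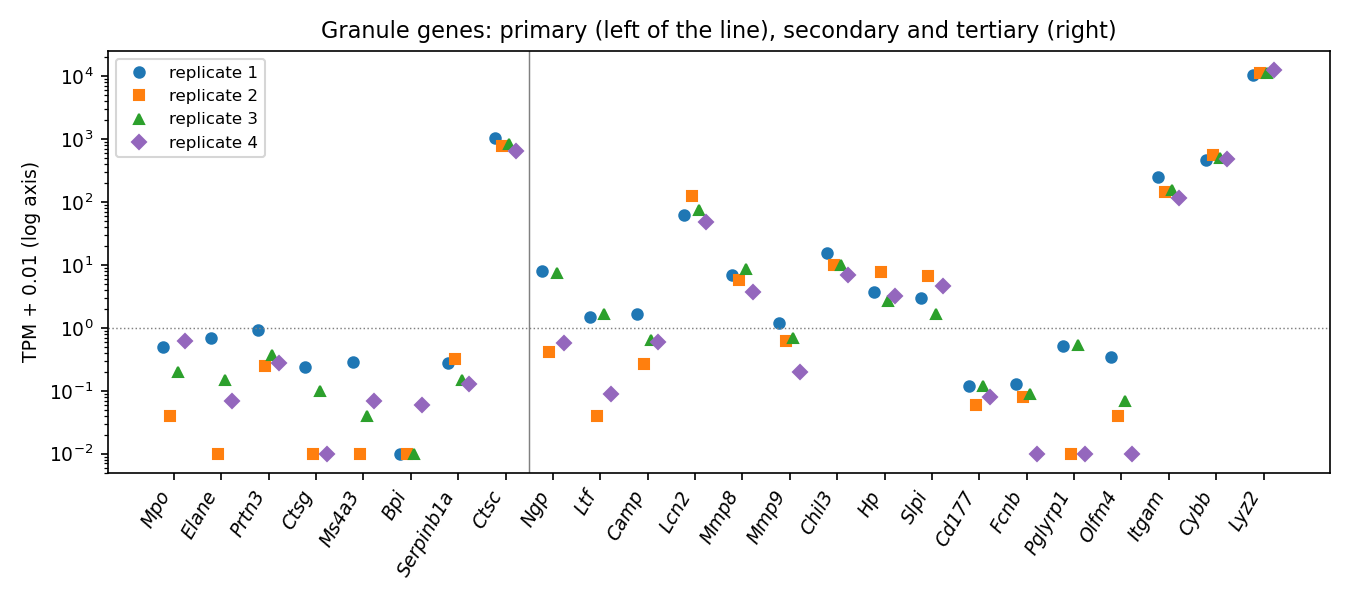
TPM + 0.01 on a log axis of 8 primary granule genes (left of the vertical line) and of Ngp, Ltf and Camp with 13 other secondary and tertiary granule genes (right); each symbol is 1 library and the dotted line is 1 TPM. Ctsc, Lyz2, Cybb and Itgam lie above 100 TPM in every library, most primary granule genes lie below 1 TPM, and Ngp and Ltf split into 2 high and 2 low libraries with a gap that Lcn2, Mmp8 and Chil3 lack.

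Transcription factors of granulocyte development were detected apart from Cebpe and Gfi1. Of 7 listed factors 5 were detected, with Spi1, which encodes PU.1, at 367 ± 33.7 TPM, Cebpb at 116 ± 42.3, Cebpa at 25.9 ± 5.22, Runx1 at 17.0 ± 3.47 and Cebpd at 5.03 ± 1.88 TPM (SD, n = 4), and the median log2 level was 4.10. Cebpe, the factor that drives secondary granule genes during neutrophil maturation, had 3, 1, 3 and 3 counts, with no library apart from the others. Gfi1, a repressor needed for neutrophil development, had 15, 20, 16 and 38 counts, and both are named after their values were seen. None of the 6 factors that passed the filter was called by the spread test.

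The label of macrophage was checked against markers, and so were markers of other cells. All 8 macrophage markers were detected and summed to 16471 to 19661 TPM. Of 10 neutrophil markers Csf3r, Mmp8 and Padi4 were detected, and Csf3r alone had 83.0, 107, 110 and 98.9 TPM in replicates 1 to 4. The chemokine receptor Cxcr2, which neutrophils express, had 8, 1, 3 and 1 counts and is named after its values were seen.

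Of 5 monocyte markers 3 were detected, and the list summed to 140, 110, 92.0 and 75.0 TPM in replicates 1 to 4. Within it Ccr2, which brings monocytes out of the bone marrow, had 7.78, 3.17, 5.92 and 2.96 TPM, so replicates 1 and 3 were the higher libraries. No eosinophil marker of 6, no NK cell, erythroid or stromal marker of 4 each, and 1 each of the mast cell and basophil, dendritic cell, T cell and B cell lists were detected. Ribosomal RNA genes held 7.14%, 2.73%, 1.29% and 2.69% of TPM in replicates 1 to 4 and mitochondrial genes 1.94%, 2.79%, 4.77% and 3.99%. Neither set replicates 1 and 3 apart from replicates 2 and 4. The part of monocyte markers in the levels of S100a8, S100a9 and Ngp was not tested.

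The recorded read files are the only technical split that the deposited records give. edgeR's quasi-likelihood test, replicates 3 and 4 with 4 read files over replicates 1 and 2 with 6, called 0 of 12667 genes at an adjusted p of 0.05, a background of 0%, with 897 genes at an unadjusted p under 0.05, and DESeq2 called 103. Without replicate 2 edgeR called 13, and without replicate 3 it called 2. Of the 9 genes 8 were tested and none was called. The log2 difference was -0.71 (SE 1.12, adjusted p = 0.925) for S100a8, -0.47 (SE 1.29, adjusted p = 0.956) for S100a9, 0.14 (SE 0.66, adjusted p = 0.972) for S100a4 and 0.02 (SE 0.26, adjusted p = 0.989) for S100a10, by edgeR. It was -0.36 (SE 0.58) for S100a6, -0.36 (SE 0.26) for S100a11, -0.25 (SE 1.39) for Ngp and 0.47 (SE 1.46) for Ltf, with adjusted p between 0.808 and 0.977 in the same fit. The SE of S100a8, S100a9, Ngp and Ltf was above 1 log2 unit, since each set holds a high and a low library. A difference must be well above its SE to be called. Differences of 1 log2 unit, and larger ones, could therefore be missed for these genes.

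The second quantification gave lower levels for all 9 genes, and for most genes. Over the 12300 genes tested the median log2 difference, second minus first in log2(TPM + 0.1), was -0.41, -0.59, -0.04 and -0.13 in replicates 1 to 4, a mean of -0.29. By limma 1340 genes, a background of 10.9%, differed at an adjusted p of 0.05 and by at least 1 log2 unit, 944 of them higher and 396 lower in the second quantification, and none of the 7 genes of the set that were tested did. Without the limit on size 30.7% of all genes were lower in the second quantification, and so were S100a4 (-0.50, SE 0.15, adjusted p = 0.00531), S100a6 (-0.43, SE 0.15, adjusted p = 0.0214), S100a8 (-0.50, SE 0.14, adjusted p = 0.0034), S100a9 (-0.51, SE 0.14, adjusted p = 0.00295), S100a10 (-0.42, SE 0.15, adjusted p = 0.0225) and S100a11 (-0.50, SE 0.14, adjusted p = 0.00323) in limma's fit, each lower in 4 of 4 libraries. Ngp differed by -0.36 (SE 0.23, adjusted p = 0.168).

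Relative to the median of each library, a centring chosen after the data were seen, the differences shrank to between -0.22 and -0.07, and S100a9, S100a10 and S100a11 were lower at an adjusted p of 0.05 in limma (adjusted p = 0.00672, 0.0154 and 0.0219), as were 15.7% of all genes, while none reached 1 log2 unit. Replicates 1 and 3 were also the higher libraries of S100a8, S100a9 and Ngp in the second quantification, and replicates 2 and 4 those of S100a4: S100a8 had 34.1, 3.59, 26.1 and 4.04 TPM, S100a9 46.9, 4.00, 50.3 and 3.80 TPM, Ngp 5.77, 0.231, 6.61 and 0.457 TPM and S100a4 19.0, 43.4, 17.5 and 65.5 TPM in replicates 1 to 4.

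**Figure D5:**
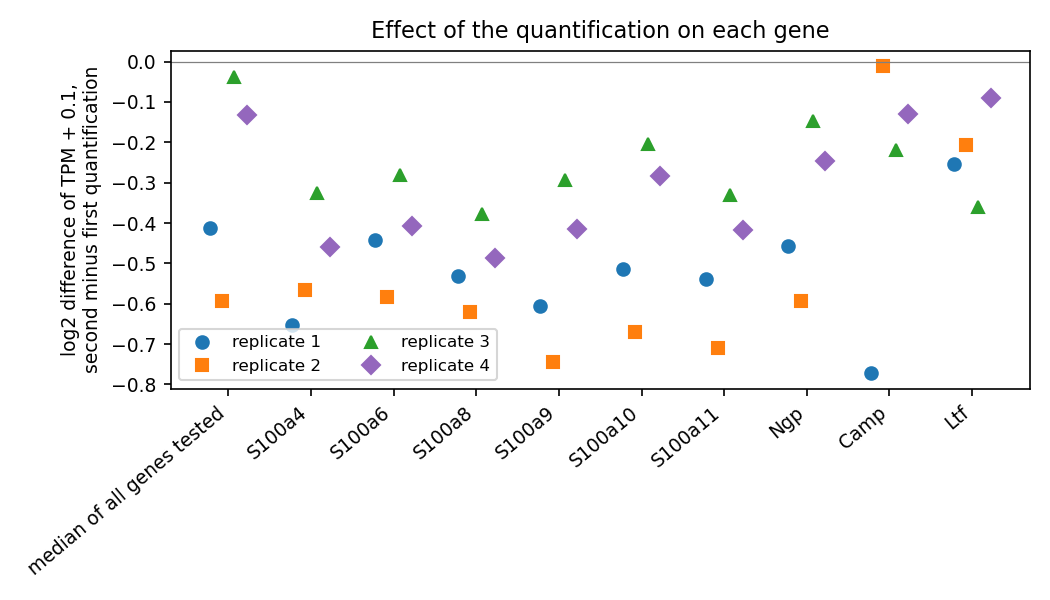
Difference between the quantifications for each gene, second minus first in log2(TPM + 0.1), with the median over all genes tested at the left; each symbol is 1 library. All points lie below 0, and S100a8, S100a9, S100a10 and S100a11 lie below the median of all genes in each of the 4 libraries.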

How the data were processed

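PolyA RNA-seq was measured in 4 mouse BMDM libraries of 1 group. The 9 genes, the gene lists and the comparisons were chosen with earlier results of these data known. Per the file headers and deposited records, the authors gave expected counts, which are not normalised, and TPM values per gene and transcript, on mm10 with GENCODE M21; the programs are not given in the sources used here. The first quantification came from transcriptome alignments and the second directly from the reads. Isoform shares are the deposited percent values of the first quantification. Replicate numbers follow the descriptions.

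Expected counts on genes, 26613690, 23167140, 41453162 and 34946569 in replicates 1 to 4, were rounded for count models. Exact Poisson and binomial intervals (95%) and the floor of 3 counts cover counting error only: PCR copies are not independent molecules. The second quantification was summed per gene. Genes named are the 9, the members of fixed lists (a mean of at least 1 TPM, or no count), and the 6 nearest in profile to S100a8 and S100a9; exceptions are marked. Spread was tested in edgeR 4.0.16 (R 4.3.3; filterByExpr, TMM, trended dispersion, deviance with 3 degrees of freedom), the read-file split by edgeR's quasi-likelihood test and DESeq2 1.42.0, and the quantifications by limma 3.58.1 on log2(TPM + 0.1) with a mean of at least 1 TPM in either quantification, all with Benjamini-Hochberg adjustment at 0.05 over all genes tested. Each was also run on simulated data, but the outcome is not given here and nothing is read from it. The common biological coefficient of variation was 22.4%, and Pearson's r of log2 TPM between libraries was 0.965 to 0.981 across detected genes, which are not independent replicates. The number of recorded read files is the one technical split known. Alternatives tried were other normalisations, filters, pseudocounts (0.01 and 1), detection thresholds, the second quantification and leaving out each replicate. One listed marker gene is not reported here.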

Additional observations from a re-analysis of the deposited data

Results flagged for a closer look

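Of the 9 genes and the listed genes with a mean of at least 1 TPM, 54 in all, 2 had 1 library far from the other 3, by a gap that, as a share of the range over libraries, passed Dixon's 95% critical value for 4 samples. Chance alone gives about 1 in 20. Neither belongs to the 9 genes. Spi1, which encodes PU.1, had 416.77 TPM in replicate 1, against 342.93, 352.93 and 354.55 TPM in replicates 2, 3 and 4 (gap 0.843 of the range). Ccr3, a chemokine receptor of eosinophils, had 17.29 TPM in replicate 1, against 1.33, 2.14 and 0.72 TPM in replicates 2, 3 and 4 (gap 0.914 of the range), while the eosinophil genes Epx, Ear6 and Il5ra had no count in any library.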

How the results depend on the processing

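No paired analysis was possible because there is 1 group. The count of genes that vary beyond the trend, 305, was 135 to 219 when each replicate was left out, with the fewest without replicate 1. With no filter on low counts 318 genes were called, Ngp and Ltf among them and S100a4 not. The read-file split, with 0 genes in edgeR, gave 103 with DESeq2, 35 with no filter and 0 to 13 when each replicate was left out, with 13 without replicate 2 and 2 without replicate 3; none of the 9 genes was called. The difference between quantifications gave 2144 genes with no filter on low values, against 1340; more genes were tested. The cause of the other changes was not tested.

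Of the 9 genes 6 were detected under each of 7 alternatives. The second quantification moved the mean of S100a10 to 106 TPM and of S100a11 to 213 TPM, and the other 61 values of level moved by less than 1 SD. That is a loose limit, as the SD was 91.8% of the mean for S100a8, 97.2% for S100a9, 102% for Ngp, 108% for Ltf and 78.0% for Camp. Without replicate 1 the mean was 15.1 TPM for S100a8, 24.5 for S100a9, 2.77 for Ngp and 0.493 for Camp. Without replicate 3 it was 0.530 TPM for Ltf. The spread of S100a6 was 0.93 log2 units without replicate 3, against 1.82. That of Ngp was 2.68 with a pseudocount of 1, that of Ltf was 1.37 with a pseudocount of 1 and 5.39 with one of 0.01, against 3.77, and that of Camp ranged from 1.02 to 2.65 over all alternatives. Depth limits Camp, Ltf and Ngp, which rest on as few as 2, 1 and 6 counts, and a count of 0 allows up to 0.129 CPM.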
